A study of Mus musculus with 3 samples.

Results

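The genes described here are 44 cell cycle and DNA replication genes, measured in the esophagus, stomach and intestine primordia of mouse embryos. They were chosen by name and by role, as 18 replication genes, 11 mitosis genes, 12 cyclin and CDK genes (cyclin-dependent kinases) and 3 CDK inhibitor genes. The choice was made with earlier results of these data known. An array probe could be assigned to 41 of them, among 16998 genes with a named probe. Mki67, Gins1 and Ccnd1 had no matched probe, so their levels were not analysed here. All 41 were well above background in all 3 organs. Replication genes such as Pcna, Mcm3 and Rrm1 read lowest in esophagus, and Pcna and Cdk1 were more than 2-fold higher in intestine than in either other organ. Cdk6 and Ccne2, which act before S phase, read lowest in intestine, whereas Cdk4, which also acts before S phase, read highest there. The CDK inhibitor gene Cdkn1b read lowest in intestine too.

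Each primordium came from ICR embryos at E11.5, and its Cy3-labelled RNA was hybridised to a 1-colour Agilent mouse expression array. With 1 array per organ, differences lack a replicate check, and no test was run. No allele, transgene or treatment is named in the labels, and they state neither how many embryos a sample held nor whether embryos were pooled. The extraction protocol names only the stomach in each sample's labels, and the organ was taken from title and tissue. The arrays shared 1 slide and 1 scan, and an effect of array position cannot be told apart from the organ. The tissue labels were set against defining markers. Barx1 and Six2, regulators of stomach development, were highest on the stomach array (levels of 4.43 and −0.14), and Cdx2, a regulator of intestinal identity, was above background in stomach (−4.37) and intestine (1.85) and not in esophagus. Trp63 and Pax9, regulators of the anterior foregut, were highest in esophagus (0.25 and −0.72) and not well above background in intestine. The intestinal regulator Cdx1 was well above background on the stomach array alone (−5.57) and not on the intestine array, where Vil1, Fabp2 and Isx were.

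Before S phase, the MCM2-7 helicase is loaded onto replication origins by Cdc6 and Cdt1, and it is then activated with the help of the GINS complex. Cyclins bind and activate CDKs at successive stages of the cycle, and inhibitors such as the product of Cdkn1b restrain these kinases. Genes needed for S phase are typically transcribed under E2F control, whereas genes of G2 and mitosis are typically controlled through CCAAT boxes and an element called the cell cycle genes homology region, or CHR. In the embryonic gut tube at mid-gestation, both the epithelium and the surrounding mesenchyme proliferate.

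Because the classes are known for different promoter elements, windows from 8 members are shown. Of the 44 members, 36 had a promoter in the RefSeq table (GRCm38.p6), which covers 250 bases before to 50 after the transcript start. The motifs searched on both strands were TTTGGCGC or TTTCCCGC for E2F, CCAAT for the CCAAT box and TTTGAA for the CHR. Mcm6, Mcm7 and Mcm5 encode helicase subunits and Cdc6 a helicase loader. Their windows are chr1:128359706-128359825 and chr5:138171895-138172058 on the minus strand, and chr8:75109350-75109501 and chr11:98908003-98908030 on the plus strand, each printed 5′ to 3′ along the gene. Capitals mark E2F and CCAAT letters on either strand, and no motifs overlapped in these windows.
Mcm6: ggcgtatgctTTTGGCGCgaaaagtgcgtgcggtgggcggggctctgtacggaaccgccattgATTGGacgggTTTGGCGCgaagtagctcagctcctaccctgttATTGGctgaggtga
Mcm7: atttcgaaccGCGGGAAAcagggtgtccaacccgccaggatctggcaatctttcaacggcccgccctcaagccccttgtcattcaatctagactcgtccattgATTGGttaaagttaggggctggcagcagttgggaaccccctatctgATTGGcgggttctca
Mcm5: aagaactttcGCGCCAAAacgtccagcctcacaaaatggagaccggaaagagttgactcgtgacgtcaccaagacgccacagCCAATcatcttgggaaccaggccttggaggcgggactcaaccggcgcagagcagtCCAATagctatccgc
Cdc6: ccggtggagaGCGGGAAAtcgcctgggg
An E2F match was present in 8 of 15 replication gene promoters (Mcm3, Mcm5, Mcm6, Mcm7, Cdc6, Cdt1, Rfc3 and Pola1). The same match was present in 1.8% of the 27025 genes of the table and in 3.18% of the 10250 of them that were well above background on all arrays. It was found in 0 of 10 mitosis gene promoters, 1 of 8 cyclin and CDK gene promoters (Cdk2) and 0 of 3 inhibitor promoters.

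The second set shows mitotic promoters. Cdk1 encodes the kinase that starts mitosis, Top2a the topoisomerase that untangles sister chromatids, Cdc20 an activator of the anaphase-promoting complex, and Kif11 a motor that separates the spindle poles. The windows are chr10:69352913-69353130, chr11:99024197-99024426 and chr4:118437344-118437406 on the minus strand and chr19:37376327-37376378 on the plus strand. Capitals mark CHR and CCAAT letters on either strand, again without overlap.
Cdk1: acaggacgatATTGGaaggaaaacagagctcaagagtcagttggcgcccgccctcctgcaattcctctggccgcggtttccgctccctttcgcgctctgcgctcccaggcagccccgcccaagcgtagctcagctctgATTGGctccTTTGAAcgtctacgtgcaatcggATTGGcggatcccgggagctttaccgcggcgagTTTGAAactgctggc
Top2a: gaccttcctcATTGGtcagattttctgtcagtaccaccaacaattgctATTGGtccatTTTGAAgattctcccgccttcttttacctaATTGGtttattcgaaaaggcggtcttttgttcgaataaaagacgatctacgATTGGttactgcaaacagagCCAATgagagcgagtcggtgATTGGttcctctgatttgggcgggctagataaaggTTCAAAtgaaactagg
Cdc20: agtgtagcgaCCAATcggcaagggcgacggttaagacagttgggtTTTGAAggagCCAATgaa
Kif11: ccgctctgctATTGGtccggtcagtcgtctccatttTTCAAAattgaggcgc
A CHR match was present in 8 of 10 mitosis gene promoters (Mki67, Top2a, Aurka, Bub1b, Plk1, Cdc20, Kif11 and Cenpa), and all 8 also held a CCAAT box. Mki67 is counted here although it had no matched probe and no level. The CHR letters were present in 20.2% of all genes and 14.3% of those above background, and both motifs together in 7.97% and 5.89%. Among the replication genes only Mcm2 held a CHR (1 of 15), and among the cyclin and CDK genes Ccnb2 and Cdk1 did (2 of 8). A CCAAT box was present in 27 of all 36 members and in 41.1% of all genes. A match is a description of letters and not of binding.

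Levels are log2 processed signals from which the 75th percentile of the array was subtracted, so that 0 is the signal at that percentile. They are comparable between organs for 1 probe and not between genes. Of the replication genes 17 of 17, and of the mitosis genes 10 of 10, were lowest in esophagus by the brightest probe, although Pola1, Top2a, Cdc20 and Kif11 were not so under every scaling or probe. Over all 41 members, 32 were lowest in esophagus, where 48.3% of 12864 genes above background on all arrays were. The highest level lay in intestine for 20 members (40.1% of all genes), in stomach for 16 (32.5%) and in esophagus for 5 (27.5%). A stepwise order, esophagus below stomach below intestine, was seen for 20 members, against 30.1% of all genes.

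**Figure D1:**
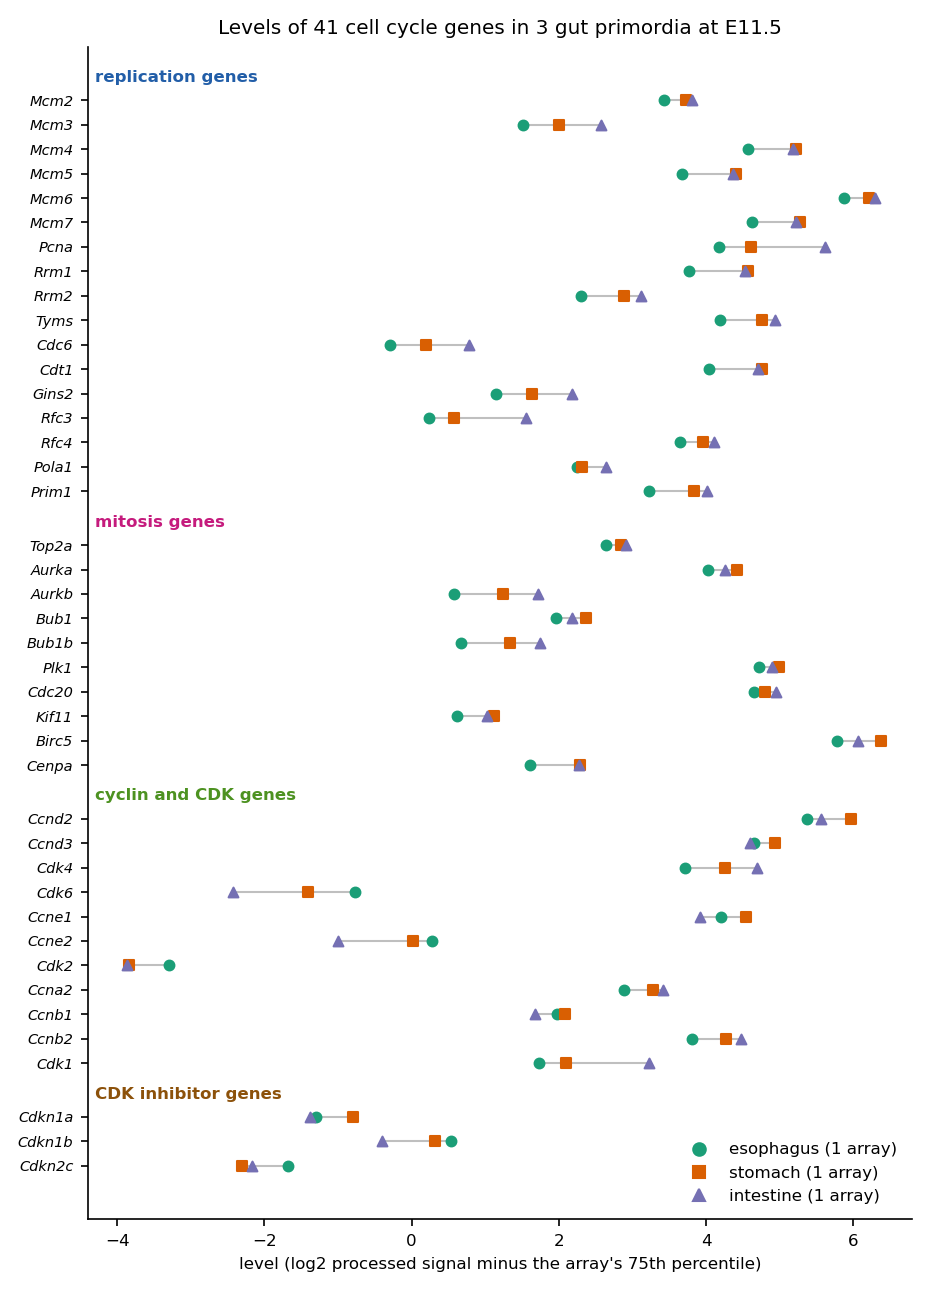
Level of each of the 41 members (log2 processed signal relative to the 75th percentile of its array) in esophagus (circles), stomach (squares) and intestine (triangles), 1 array each, with a line over the range; positions are not comparable between genes. The circle lies leftmost for all 17 replication and 10 mitosis genes, and rightmost for Cdk6, Ccne2, Cdk2, Cdkn1b and Cdkn2c; with the dimmer probe, Top2a and Kif11 were instead highest in esophagus.

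Class medians placed the replication genes above all genes in each comparison. Their median difference was 0.50 log2 units for stomach minus esophagus, 0.75 for intestine minus esophagus and 0.18 for intestine minus stomach, where the medians of all genes were 0.15, 0.13 and −0.02. Mitosis genes had medians of 0.45, 0.29 and −0.05, and the last turned positive with normexp background correction, with quantile normalization, and when each array was centred on its median or each difference on genes of like level. Cyclin and CDK genes had medians of 0.34, −0.05 and −0.34, and the middle value turned positive with normexp correction (0.15), with median centring (0.45) and with the mean or the dimmest probe of a gene (0.40 and 0.37). The 3 inhibitor genes had medians of −0.22, −0.48 and −0.59, and the middle value was 0.01 with median centring. Median centring moved all genes by 0.20, 0.48 and 0.29 log2 units in the same order, and medians relative to all genes are therefore also given. Relative to all genes, over 11 settings (the values as reported and 10 alternatives), the replication median stayed between 0.29 and 0.41, between 0.41 and 0.89 and between 0.18 and 0.46. The inhibitor median stayed between −0.72 and −0.31, between −0.69 and −0.40 and between −0.63 and −0.47. The mitosis median lay between 0.21 and 0.36, between 0.03 and 0.46 and between −0.07 and 0.18. The cyclin and CDK median lay between 0.02 and 0.28, between −0.24 and 0.34 and between −0.31 and 0.04.

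**Figure D2:**
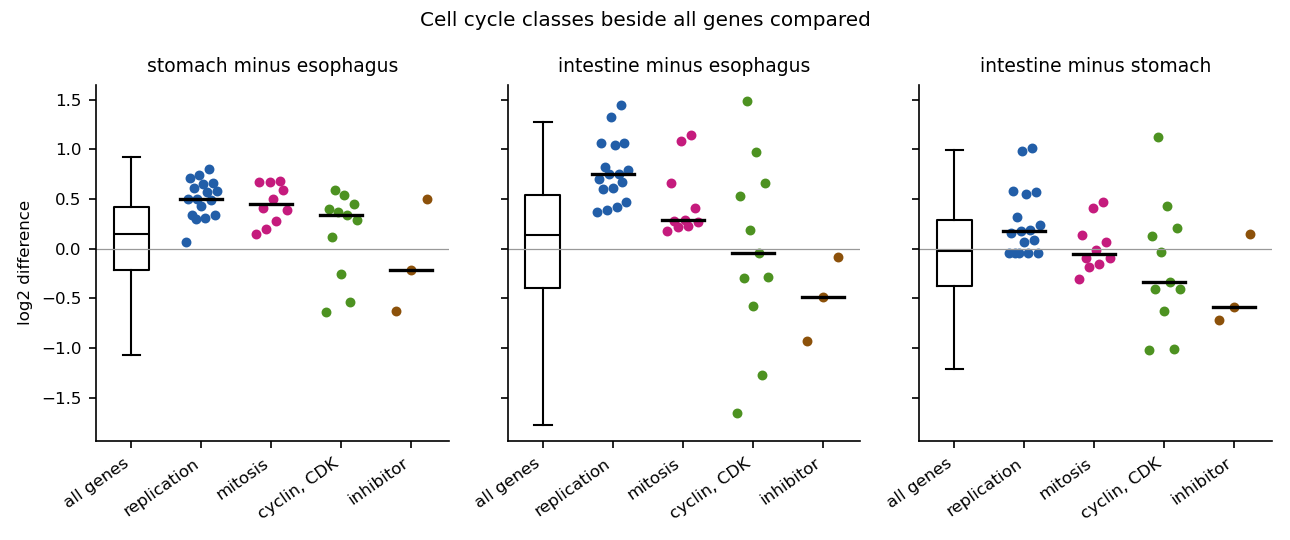
Log2 difference of every member by class (points, with the class median as a bar) beside all genes compared (box from the 25th to the 75th percentile, whiskers from the 5th to the 95th), 1 array per organ. Replication genes lie above 0 throughout for both organs against esophagus, with medians of 0.50 and 0.75, whereas cyclin and CDK genes spread on both sides; the sign of their median in intestine minus esophagus (−0.05) turned under 4 other settings.

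Levels of bright genes tended to be higher in stomach than in esophagus throughout the array. Genes above a level of 4 had a median stomach minus esophagus difference of 0.26, and genes below −2 one of 0.04. The 17 members above 4 had a median of 0.54, and the 11 between 2 and 4 had one of 0.40 where all genes of that band had 0.22. For intestine minus esophagus the same bands gave 0.60 against 0.07, and 0.53 against 0.21. The 8 members between 0 and 2 had 0.49 and 1.05, where all genes had 0.16 and 0.20. The 3 between −2 and 0 had −0.26 and −1.27, where all genes had 0.06 and 0.14, and the 2 below −2 had −0.58 and −0.53, where all genes had 0.04 and −0.09. When each difference was set against genes of like level, the replication medians were 0.36, 0.60 and 0.24.

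Markers of other cell types and of neighbouring organs differed between the samples. The summed level of liver markers (11 of 12 named) was 92.8 times the 75th percentile in intestine, against 11.7 in esophagus and 10.2 in stomach. Gene by gene, 10 of 11 liver markers stood 2-fold or more above their esophagus level in intestine and 1 as far below it (median 3.07). In stomach 7 of the 10 compared lay 2-fold or more below it and 2 above (median −1.53). Hnf4a and Ttr were not well above background in esophagus, nor Ttr in stomach. Heart markers (12 of 12) summed to 134 in esophagus, 3.57 in stomach and 4.17 in intestine, where Ryr2 was not well above background in stomach. Erythroid markers (11 of 12) summed to 348, 485 and 341, with all 11 above background on each array. Endothelial markers (10 of 10) summed to 19.9, 16.8 and 23.1, and macrophage markers (9 of 10) to 4.90, 5.81 and 6.63. Neuronal markers (10 of 10, with Snap25 not above background on any array) summed to 12.4, 18 and 15.1, and enteric neural crest markers (9 of 10) to 13.8, 10.4 and 6.84. Gene by gene, 4 of these 9 neural crest markers were 2-fold or more higher in stomach than in esophagus and 1 as far lower (median 0.49). Their sum therefore does not give the order of most of them in stomach and esophagus. In intestine 0 were 2-fold or more above their esophagus level and 2 as far below it (median −0.32). The part of these cells in the differences of the cell cycle genes was not tested. In such bulk samples, fewer cells of a type and less RNA per cell cannot be told apart.

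All 9 licensing and helicase genes were lowest in esophagus, and 4 of them read slightly lower in intestine than in stomach, an order that turned in 4 of 11 settings, namely normexp, quantile normalization, median centring and like-level centring. Mcm4 read 4.57 in esophagus, 5.22 in stomach and 5.18 in intestine. Mcm5 read 3.67, 4.41 and 4.37. Mcm7 read 4.63, 5.27 and 5.22. In these 3 helicase subunits stomach and intestine lay within 0.05 of each other, and esophagus was 1.51-fold to 1.67-fold lower than either. Mcm2 read 3.44, 3.73 and 3.80, and Mcm6 read 5.87, 6.21 and 6.29, with smaller steps of 0.30 and 0.34 from esophagus to stomach. Mcm3, a further subunit of the same helicase, read 1.51, 2.0 and 2.58. As reported, it alone among the 6 subunits stood clearly higher in intestine than in stomach, by 0.57. Over the 11 settings the same difference reached up to 0.71 in Mcm6. Mcm3 stood 2.09-fold higher in intestine than in esophagus. The 6 subunits had median differences of 0.57, 0.60 and 0.01.

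The loader Cdc6 followed the stepwise order, at −0.29 in esophagus, 0.20 in stomach and 0.78 in intestine. It stood 2.09-fold higher in intestine than in esophagus, and its second probe gave a smaller difference of 0.78 log2 units where the first gave 1.07. Cdt1, the other loader, followed Mcm4, Mcm5 and Mcm7 instead, with 4.04, 4.75 and 4.71. Gins2, a subunit of the GINS complex, read 1.14, 1.64 and 2.18 and stood 2.06-fold higher in intestine than in esophagus.

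Among the replication genes, Pcna and Rfc3, which act at the fork, held the largest differences between intestine and the other organs. Pcna, the sliding clamp that tethers DNA polymerase, read 4.18 in esophagus, 4.61 in stomach and 5.62 in intestine. Its probe was printed 10 times, with an SD over spots of 0.034, 0.075 and 0.066, so each difference was larger than the spread within an array. Pcna stood 2.72-fold higher in intestine than in esophagus and 2.02-fold higher than in stomach. Rfc3, a subunit of the complex that loads the clamp, read 0.23, 0.57 and 1.56. It stood 2.51-fold higher in intestine than in esophagus and 1.98-fold higher than in stomach. Rfc4, a subunit of the same loader, differed less, at 3.65, 3.96 and 4.11. Prim1, the catalytic primase subunit, read 3.23, 3.84 and 4.02. Pola1, the catalytic subunit of the polymerase that extends the primers, read 2.25, 2.32 and 2.64, and its difference of 0.07 between stomach and esophagus was the smallest of the class and turned negative in 2 of 11 settings.

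Nucleotide supply genes followed the same direction. Rrm1, the large subunit of ribonucleotide reductase, read 3.77 in esophagus, 4.57 in stomach and 4.53 in intestine. Its difference of 0.80 between stomach and esophagus, 1.74-fold, was the largest of all 41 members in that comparison. Rrm2, the small subunit, read 2.30, 2.88 and 3.12, and Tyms, which makes thymidylate, read 4.19, 4.76 and 4.94. Esophagus was lowest for all 3 genes, and both probes of Tyms gave that order. For intestine minus esophagus, all 17 replication genes stayed above 0 in every one of 11 settings, and for stomach minus esophagus 16 did.

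**Figure D3:**
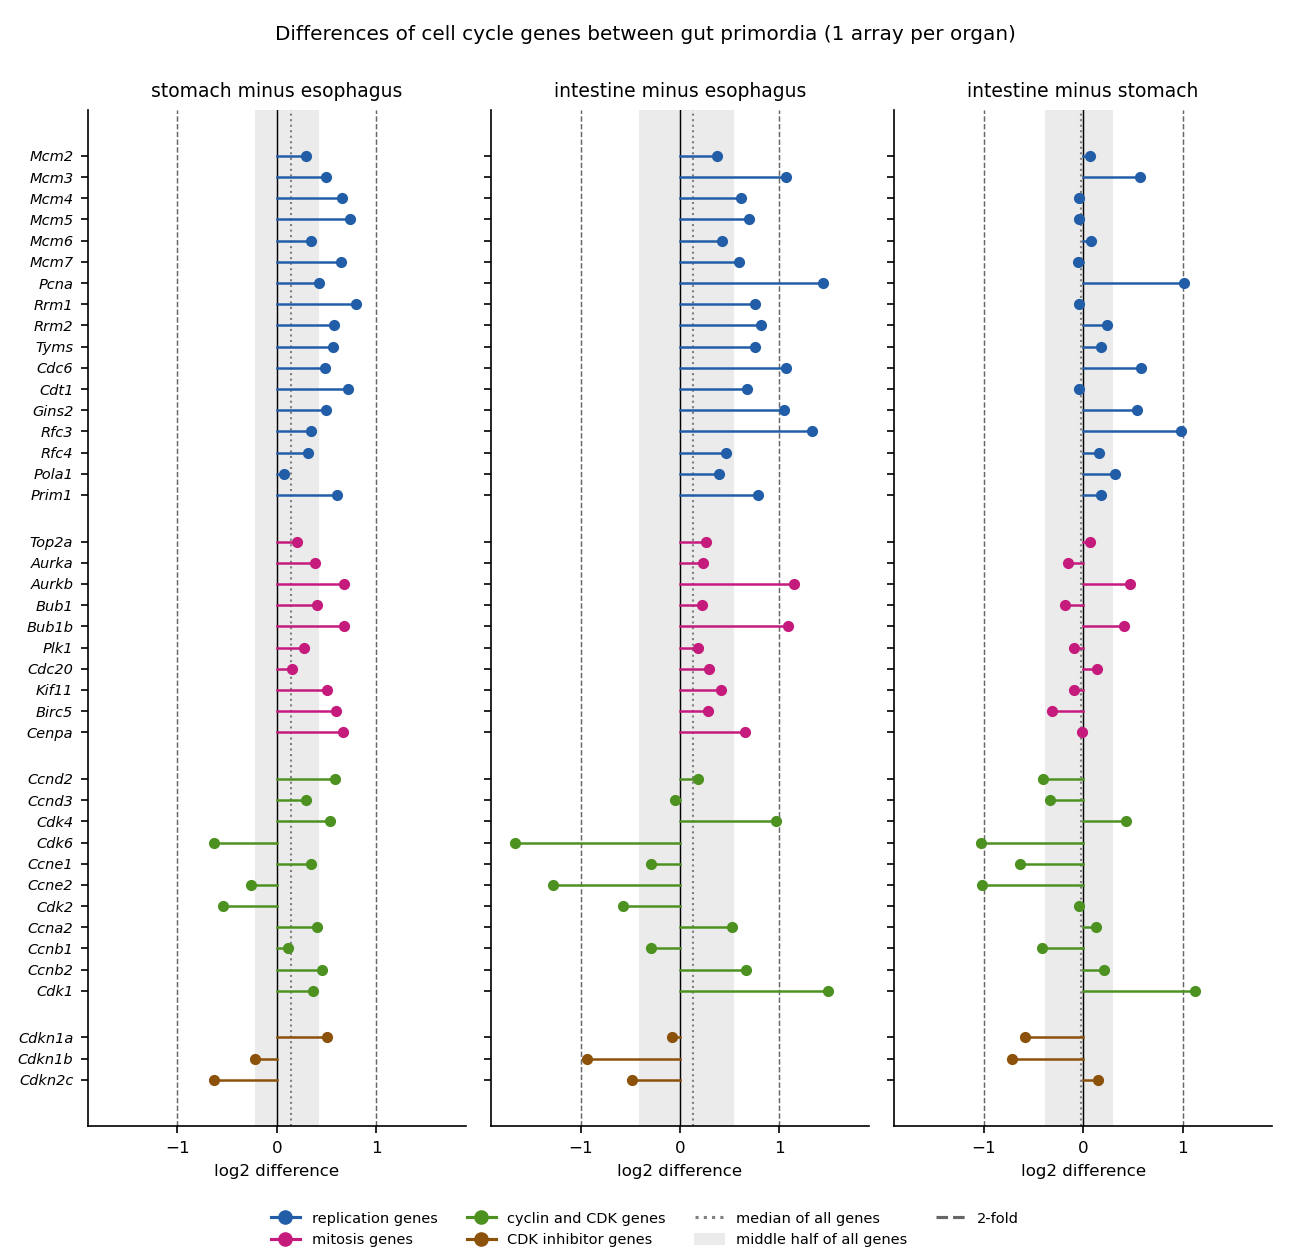
Log2 difference of each member in the 3 comparisons (points on stems from 0), with the median of all genes (dotted), their 25th to 75th percentiles (grey) and 2-fold limits (dashed), 1 array per organ. No member reached 2-fold between stomach and esophagus, whereas 8 were higher and 2 lower in intestine than in esophagus; median centring made these 20 and 1.

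Mitosis genes were higher in stomach and intestine than in esophagus, by margins that were small for most, although Top2a, Kif11 and, in stomach, Cdc20 turned in some settings. Their medians of 0.45 and 0.29 stood beside 0.15 and 0.13 for all genes and 0.16 and 0.28 for the 12 reference genes. In intestine their rise was therefore near that of the reference genes. Aurkb, the kinase of the chromosomal passenger complex, read 0.57 in esophagus, 1.25 in stomach and 1.71 in intestine. Bub1b, which encodes the spindle checkpoint protein BubR1, read 0.66, 1.34 and 1.75. Both genes had the order esophagus, stomach, intestine from low to high and were 2.21-fold and 2.12-fold higher in intestine than in esophagus. Birc5, the survivin subunit of the passenger complex, was highest in stomach instead, at 5.78, 6.38 and 6.07. Cenpa, the histone H3 variant of centromeres, read 1.61, 2.28 and 2.27, so stomach and intestine did not differ beyond 0.01.

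The remaining mitosis genes spanned at most 0.50 log2 units over the organs by the probe used. Aurka, a kinase of spindle poles, read 4.03, 4.42 and 4.26. Bub1, a checkpoint kinase, read 1.96, 2.37 and 2.18. Plk1, a kinase of mitotic entry and exit, read 4.71, 4.99 and 4.89. In all 3 the stomach was highest and the esophagus lowest. Cdc20 read 4.66, 4.81 and 4.95, highest in intestine, with a range of 0.29. Top2a read 2.64, 2.84 and 2.91 by its brighter probe, whereas its other probe read 2.46, 1.77 and 1.05 and gave the opposite order. Kif11 likewise read 0.62, 1.12 and 1.03 by its brighter probe and −1.54, −1.94 and −3.05 by the other. The direction of both genes therefore depends on the probe. Against esophagus, 7 of 10 mitosis genes kept their sign in stomach and 8 in intestine in every setting.

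Cyclin and CDK genes differed in both directions. Cdk1 read 1.73 in esophagus, 2.10 in stomach and 3.22 in intestine. It stood 2.81-fold higher in intestine than in esophagus and 2.18-fold higher than in stomach, the largest positive difference among the members in both comparisons. Its second probe was above background in intestine (−5.99) and not above it in the other organs. The partners of Cdk1 differed less. Ccnb2, a mitotic cyclin, read 3.81, 4.27 and 4.48. Ccna2, the cyclin of S and G2 phases, read 2.89, 3.29 and 3.41. Both were lowest in esophagus and highest in intestine. Ccnb1, the other mitotic cyclin, read 1.97, 2.09 and 1.68 by the brightest of its 3 probes. Both of its other probes were higher in intestine than in esophagus, by 0.59 and 0.04, so the place of intestine depends on the probe.

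Cdk6, a kinase of G1, had the opposite order. It read −0.77 in esophagus, −1.41 in stomach and −2.43 in intestine, which put intestine 3.15-fold below esophagus and 2.03-fold below stomach. Its dimmer probe also read lower outside the esophagus, at −3.53, −4.19 and −4.21, without a step between stomach and intestine. Cdk4, the other kinase that binds D cyclins, read 3.72, 4.26 and 4.69 and had the reverse order of Cdk6, with intestine 1.96-fold above esophagus. Its sign was kept in all 11 settings, as was that of Cdk6. The D cyclins themselves were highest in stomach. Ccnd2 read 5.38, 5.97 and 5.56, and each of its 3 probes was highest in stomach. Ccnd3 read 4.65, 4.94 and 4.60.

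The E cyclins, which activate Cdk2 at the entry into S phase, were lower in intestine by the brightest probes. Ccne2 read 0.27 in esophagus, 0.01 in stomach and −1.0 in intestine, 2.42-fold and 2.02-fold lower in intestine than in the others. Its second probe read −1.02, −0.84 and −1.62, again lowest in intestine. Ccne1 read 4.2, 4.55 and 3.91, but its dimmer probe read −1.51, −0.47 and −0.42, so that the place of intestine depends on the probe. Cdk2 read −3.30, −3.84 and −3.87, highest in esophagus. Its other probe, listed under a different accession, was not above background in esophagus and read −4.94 in stomach and −4.10 in intestine.

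**Figure D4:**
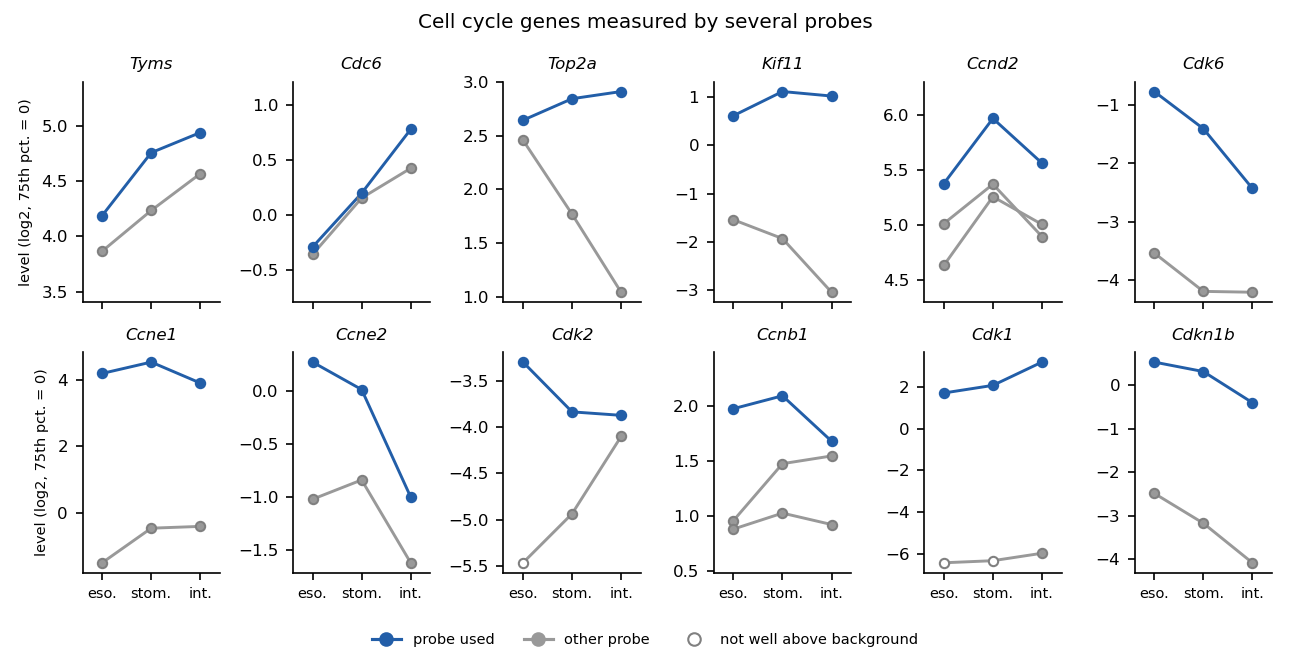
Levels (log2 processed signal relative to the 75th percentile of each array) of all probes of the 12 members with several probes, in esophagus, stomach and intestine, with the probe used in blue, other probes in grey and open points not well above background. The probes of Tyms, Cdc6, Cdk6 and Cdkn1b run the same way, whereas those of Top2a, Kif11, Ccne1, Ccnb1 and Cdk2 cross or oppose each other.

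All 3 inhibitor genes read lower in intestine than in esophagus, although with median centring only Cdkn1b did. Cdkn1b, which encodes p27, read 0.53 in esophagus, 0.31 in stomach and −0.40 in intestine. Its probe was printed 10 times with an SD over spots of 0.056, 0.026 and 0.041, and it was 1.91-fold lower in intestine than in esophagus. Its second probe gave the same order, at −2.49, −3.18 and −4.08. Cdkn1a, which encodes p21, was highest in stomach, at −1.30, −0.80 and −1.38, with an SD over 10 spots of 0.090, 0.047 and 0.032. Intestine and esophagus differed by 0.08 in Cdkn1a, and this sign turned in 2 of 11 settings. Cdkn2c, which encodes p18, an inhibitor of Cdk4 and Cdk6, read −1.68, −2.31 and −2.16, highest in esophagus. In stomach minus esophagus all 3 inhibitor genes kept their sign in every setting.

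At a threshold of 2-fold, no member differed between stomach and esophagus, where 4.14% of 13737 genes were higher and 5.71% lower in stomach. Between intestine and esophagus, 8 of 41 members were higher (Pcna, Rfc3, Mcm3, Cdc6, Gins2, Aurkb, Bub1b and Cdk1), against 8.74% of 13905 genes. Cdk6 and Ccne2, 2 of 41, were lower, against 12% of all genes. Between intestine and stomach, Cdk1 and Pcna were higher (4.96% of 13820 genes) and Cdk6 and Ccne2 lower (7.47%), and these 2 of 41 each way are near the shares of all genes. Over the settings, 1 to 3 members were higher and 0 to 2 lower in that comparison. Median centring changed the intestine and esophagus split to 20 higher and 1 lower, like-level centring to 3 and 3, and the other settings gave 6 to 8 higher and 2 or 3 lower. Pcna and Rfc3 exceeded 2-fold between intestine and esophagus in all 11 settings, Cdk1 did so in 10, and Cdk6 was lower by 2-fold or more in 10. For all genes, too, the split depended on the processing: higher genes made up 42.1%, 42.2% and 39.9% of those 2-fold apart in the 3 comparisons, from 30.9% to 61.9%, from 27.5% to 79.3% and from 13.4% to 68.3% over the settings.

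A threshold of 1.5-fold also separated members between stomach and esophagus. There, 11 of 41 members were higher in stomach, against 13.6% of all genes, and 2 were lower, against 11.9%. Of these 11, 6 were replication genes. In intestine against esophagus 19 members were higher (22.4% of all genes) and 3 lower (19.5%), and 13 of the 19 were replication genes. In intestine against stomach 3 were higher (11.7%) and 5 lower (15.8%), the last including Ccne1 and Cdkn1b. No p was computed. The spread between probes of 1 gene describes technical precision only, and it holds no variation between embryos, dissections or arrays. The median SD of a difference between probes was 0.25 for stomach minus esophagus, 0.46 for intestine minus esophagus and 0.31 for intestine minus stomach. Of the members with several probes above background, 3 of 10, 5 of 10 and 4 of 11 had probes of opposite sign in the 3 comparisons.

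Other genes of the same pathways, from lists chosen with earlier results of these data known, gave the following. Of 42 further replication genes, 5 were higher and 0 lower in intestine than in esophagus by 2-fold or more (8.74% and 12% of all genes), so the count of higher genes is near the share of all genes, with medians of 0.41, 0.45 and 0.07 in the 3 comparisons. Cdc45, which joins MCM2-7 and GINS in the active helicase, read −1.70 in esophagus, −0.85 in stomach and 0.18 in intestine, and stood 3.67-fold higher in intestine than in esophagus. Pola2, a polymerase alpha subunit, Fen1, the flap endonuclease, Pole2, a polymerase epsilon subunit, and Cdc7, a kinase that activates the helicase, differed by 1.28, 1.1, 1.02 and 1.14, although 1 of the 3 Cdc7 probes gave −1.99. By the probes used, stomach lay between the other organs in these genes, as in Cdc6, Gins2 and Rfc3. That intestine lay above esophagus follows from the 2-fold threshold by which they were named.

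Of 52 further mitosis genes, 11 were higher and 3 lower in intestine than in esophagus by 2-fold or more (8.74% and 12% of all genes), with medians of 0.37, 0.44 and 0.05. Kif20a, a motor of cytokinesis, read 2.54, 3.80 and 3.93, and was the only listed mitosis gene 2-fold apart between stomach and esophagus (2.4-fold). The others higher in intestine were Ttk, Nek2, Ccnf, Spc25, Kif23, Kif22, Kif18a, Ckap2, Mad2l1 and Tpx2, by 1.05 to 1.31. The 3 lower were Anln, an actin-binding protein of cytokinesis, by −1.60, Hmmr, a spindle-associated protein, by −1.42, and Kif15, a spindle motor, by −1.15. The probes of Anln, Kif15 and Ckap2 ranged from −1.60 to −0.06, from −1.15 to 0.61 and from −0.67 to 1.09.

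Among 31 further regulators, 3 were higher and 2 lower in intestine than in esophagus by the same threshold, which is near or below the 8.74% and 12% of all genes, with medians of 0.27, 0.46 and 0.06. The higher ones were Rbl1, a pocket protein that represses E2F targets (1.54), Chek1, the replication checkpoint kinase (1.53), and Cdk7, the CDK-activating kinase (1.01). The lower ones were Wee1, which phosphorylates and inhibits Cdk1 (−1.50), and E2f3, an E2F transcription factor (−1.39 by its brightest probe and 0.16 by its other). Chek1 had the direction of Cdk1, and Wee1 that of Cdk6. From a list of further genes linked to cell cycle inhibition, not all of them inhibitors themselves, 15 were compared. Of these, 0 were higher and 4 lower in intestine than in esophagus by 2-fold (8.74% and 12% of all genes). The medians of the 15 in the 3 comparisons were −0.06, 0.10 and −0.11. The 4 lower genes were Cdkn1c, the p57 gene, at −1.01, and Tob1, Gadd45b and Btg2, growth-restraining genes, at −1.65, −1.46 and −1.32. Cdkn2b, the p15 gene, read −4.11 in esophagus and −4.02 in intestine and was not well above background in stomach. Among 12 reference genes, Actb (−1.98) and Ywhaz (−1.25) were lower and Tbp (1.24) higher in intestine than in esophagus, and their median was 0.28.

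**Figure D5:**
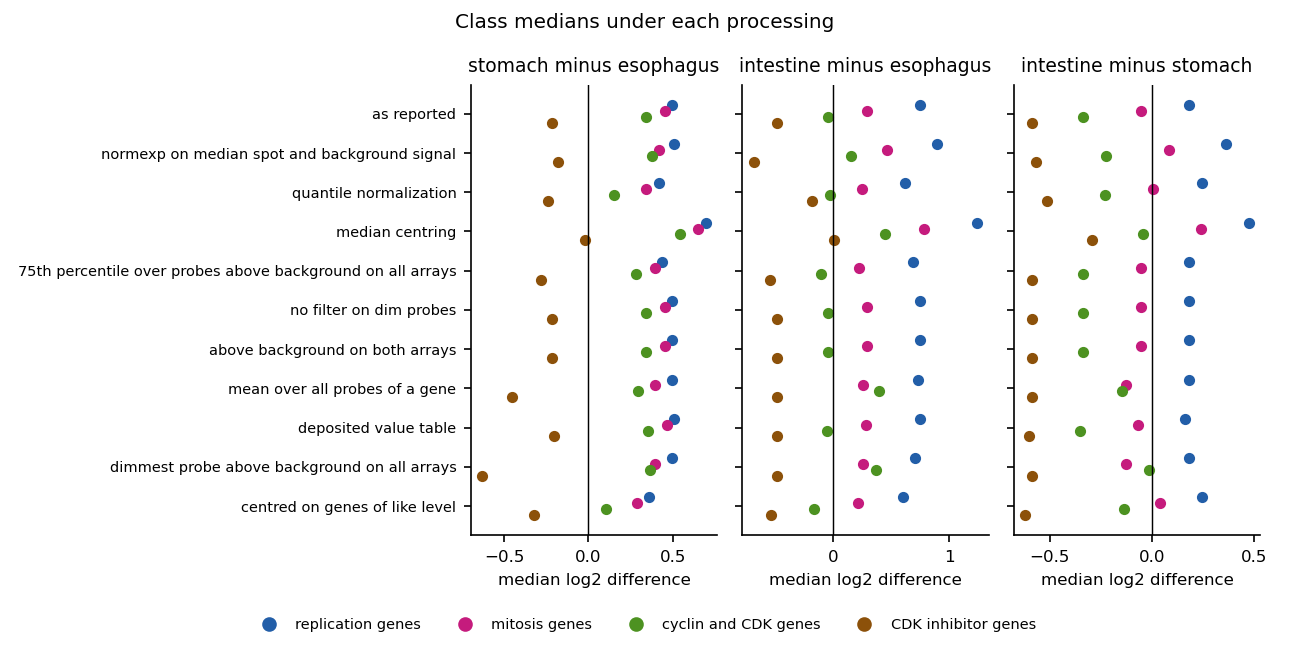
Median log2 difference of each class in the 3 comparisons under each processing (rows), 1 array per organ. The replication median is above 0 in every row, from 0.36 to 0.70, from 0.60 to 1.24 and from 0.16 to 0.47, whereas the cyclin and CDK median for intestine minus esophagus lies on both sides of 0, from −0.17 to 0.45.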

How the data were processed

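The scanner files held 1 array per organ. Per the file headers, the scans were quantified by Agilent Feature Extraction, version 10.5.1.1. The deposited processed signal is an intensity after subtraction of local background, per the file headers, and was not scaled between arrays. The authors also deposited log2 values in a table, whose medians were −2.97, −3.17 and −3.47 for esophagus, stomach and intestine. After removal of a constant, 99.8%, 99.9% and 99.9% of its probes lay within 0.01 of the log2 scanner values. It is not centred per gene, and it served as an alternative.

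Here, outlier spots were dropped (111, 70 and 77), log2 of the processed signal was taken minus the array's 75th percentile over 43379 non-control spots, and spots of a probe were averaged. The percentile lay at 393, 334 and 1023, and 69.3%, 67.9% and 74.0% of spots were well above background. A probe was measured when most of its spots were well above background, and a gene entered a comparison when measured on at least 1 of the arrays compared. All differences of members were measured on both arrays. Probes were named by accession through a RefSeq gene table (GRCm38.p6), and 24342 of 41112 probes matched. A gene was represented by its brightest probe over the 3 arrays. Spots of a probe printed 10 times had a median SD of 0.104, 0.0893 and 0.0767. With 1 array per organ no test was run, and precision is limited by this number of arrays. The calculation of differences was tested on simulated gene levels with planted differences. Spot filtering, scaling and the naming and choice of probes were not part of that simulation.

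Any member could be named. Of the pathway lists, genes at least 2-fold apart were named, and of marker lists defining genes. The members and lists were chosen with earlier results of these data known. Alternatives were normexp correction (limma 3.58.1, offset 50) on the median spot signal, since the files hold no mean signal, quantile normalization, median centring, the percentile over probes above background on all arrays, no filter or a filter on both arrays for dim probes, the mean of all probes, the deposited table and a 1.5-fold threshold. The dimmest measured probe and centring on genes of like level (lowess, span 0.3) were chosen after seeing the data. Naming by the array's own gene names was not run, because that column was not in the files used here.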

Additional observations from a re-analysis of the deposited data

How the results depend on the processing

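Median centring of the arrays raised the median of all genes by 0.20 for stomach minus esophagus, 0.48 for intestine minus esophagus and 0.29 for intestine minus stomach. For intestine minus esophagus it gave medians of 1.24 for replication, 0.78 for mitosis, 0.45 for cyclin and CDK and 0.0083 for inhibitor genes, and 21 members at least 2-fold apart. Centring on genes of like level, which set the median of all genes near 0 by construction, left 6 members 2-fold apart in that comparison. With the dimmest probe above background, the inhibitor median for stomach minus esophagus was −0.63, the cyclin and CDK median for intestine minus stomach was −0.015, and 1 member, Ccne1, was 2-fold apart between stomach and esophagus. Between intestine and stomach, 2 members were 2-fold apart after quantile normalization and 1 with the mean over probes. At 1.5-fold, 13, 22 and 8 members were apart in the 3 comparisons. The cause of these shifts was not tested. No member at least 2-fold apart as reported changed sign in any setting run, but with the dimmest probe Top2a (−1.41), Kif11 (−1.51) and Ccne1 (1.1), each under 2-fold and of the opposite sign as reported, became 2-fold apart between intestine and esophagus. The class medians that changed sign were given with the class values: mitosis for intestine minus stomach, and cyclin and CDK for intestine minus esophagus, besides the inhibitors for the latter with median centring. Of the 123 single differences, the sign turned for 16 with median centring, 11 with like-level centring, 10 with normexp, 9 each with quantile normalization and the dimmest probe and 8 with the mean over probes. It turned for 0 with the other 4 settings. The 75th percentile over probes above background on all arrays, both filters on dim probes and the deposited table moved no difference by more than the median SD between probes. No paired analysis was possible because each organ had 1 array.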

Other observations

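Genes outside the member list that carry the same promoter letters were set side by side across the organs, as a description. The 317 other genes with an E2F match that were above background on all arrays had a median difference of 0.22 log2 units for stomach minus esophagus and 0.19 for intestine minus esophagus, and 55.2% of them were lowest in esophagus. The 594 other genes with both a CHR and a CCAAT box had medians of 0.18 and 0.21, and 50.8% were lowest in esophagus. The 4952 other genes with none of the motifs had medians of 0.15 and 0.12, and 48.0% were lowest in esophagus. The replication genes, of which 8 of 15 promoters held an E2F match, had medians of 0.50 and 0.75. Whether the motifs have a part in these differences was not tested.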
